A study of Mus musculus with 288 samples.

Results

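The genes described here are the orphan and adhesion G protein-coupled receptors of single mouse enteroendocrine cells. They were taken by symbol alone: every mouse gene whose symbol starts with Gpr and a digit, with Gprc5 or Gprc6, with Lgr or with Adgr, leaving out Gpr119. This gave 110 of the 46078 mouse genes in the count table, of which 107 are annotated as protein coding. Gpr137b-ps and Adgrd2-ps are annotated as transcribed pseudogenes and Gpr141b as a long non-coding RNA. The rule itself uses no expression value.

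G protein-coupled receptors cross the membrane with a bundle of helices and pass a signal from outside the cell to G proteins inside it. Orphan receptors have no agreed natural ligand, although several symbols in this list now have one, such as the tryptophan receptor Gpr142. Adhesion receptors carry a long extracellular part that is cut from the membrane part, whose new end can act as a tethered agonist. In the gut epithelium, receptors on enteroendocrine cells couple nutrients and local signals to hormone release.

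The study sorted single cells from the upper small intestine and sequenced each by Smart-seq2, a full-length cDNA method without molecular identifiers. All 288 cells carry the label L-cells and none is labelled as a control, although the study's methods describe both fluorescent and non-fluorescent cells. The donors were 3 male GLU-Venus mice on a C57BL6 background, aged 20 to 21 weeks and untreated as far as the labels go, and in this transgene the proglucagon promoter drives the Venus fluorescent protein. The cells are named by 3 sequencing pools of 96 cells each, SLX-11175, SLX-11179 and SLX-9703, which serve here as replicates; the labels do not tie a pool to a mouse, and p-values measure the spread between these pools.

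Of the 288 cells, 250 had at least 20000 reads on mouse genes and at most 20% mitochondrial reads, 75, 87 and 88 in the 3 pools in the order above, which is kept for every triple of values below. The median depth was 52571, 70726 and 1975706 reads per cell, so SLX-9703 is called the deep pool. Cells were then classed within their pool by CPM, counts per 1000000 reads on mouse genes. Gcg-high cells had 10000 CPM or more of Gcg, the glucagon and GLP-1 precursor (58 cells), Gip-high cells the same of Gip, another incretin hormone (29), and Nts-high cells the same of Nts, the neurotensin precursor (28). Pzp-positive cells had 100 CPM or more of Pzp (65). Of these, 4 cells were both Gcg-high and Gip-high, 1 both Gcg-high and Pzp-positive and 9 both Nts-high and Pzp-positive, so the comparisons below share cells and are not independent of each other. A further 30 cells passed only a Cck threshold of 10000 CPM, and 54 cells passed none of the 5 and are called hormone-poor; the other 196 are the hormone cells.

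The label was checked against 12 endocrine markers such as Chga and Neurod1. Their summed level ran from 6792 to 53574 CPM over the pools of the Gcg-high, Gip-high, Pzp-positive, Nts-high and Cck-high cells, with all 12 markers present in each of these sums. In the hormone-poor cells it was 83.9, 202 and 1028 CPM, with Isl1 at 0 in SLX-11175. Plasma cell markers summed to 455726 and 412992 CPM in the hormone-poor cells of SLX-11175 and SLX-11179 and to 8.15 CPM in the deep pool, while 10 leukocyte markers summed to 110, 139 and 2990 CPM. The 10 enterocyte markers, all present, summed to 1203, 1045 and 19189 CPM in the hormone-poor cells, against 1907 to 4305 CPM in the other deep-pool classes. The 6 myeloid markers summed to 880, 551 and 466 CPM there, and the 6 stem cell markers to 47.1, 502 and 17.8 CPM. The hormone-poor cells thus did not carry the defining markers of the labelled cell type at the level of the other classes.

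Of the 110 genes, 98 had at least 1 read in the 250 cells and 12 had none. Only 58 were seen in 10 or more cells and 5 in 125 or more: Gprc5c in 240, Adgrl1 in 232, Adgrg4 in 204, Gpr107 in 191 and Adgrl3 in 161. With each cell thinned to 20000 reads, a cell showed a median of 6 of the genes (range 0 to 12). In the 76 deep-pool cells with 750000 reads or more, the median was 18 (range 10 to 28) when thinned to that depth and 6 (range 2 to 11) when thinned to 20000 reads.

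The 28 adhesion receptors held most of the reads, with a summed level of 375, 574 and 803 CPM of the 620, 846 and 1223 CPM of all 110 genes. The 10 intracellular multi-span proteins that carry Gpr names, such as the Golgi proteins Gpr107 and Gpr108, summed to 102, 120 and 190 CPM. The 4 Gprc5 genes, first found as retinoic acid induced, summed to 64.3, 57.3 and 70.8 CPM. The 44 other orphans summed to 45.9, 50 and 73.5 CPM, the 18 sensors of protons, lipids, metabolites and ions to 13.7, 18 and 43.5 CPM, the 3 Lgr genes to 12.5, 24.6 and 30.3 CPM and the constitutively Gs-coupled Gpr3, Gpr6 and Gpr12 to 6.09, 2.49 and 11.7 CPM. Adgrg4 alone gave 227, 355 and 633 CPM of the adhesion receptor sums, so the place of that group rests largely on 1 gene.

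Levels of different genes were compared per kb of exon. Adgrg4, the adhesion receptor also known as GPR112, led in every pool with 23.1, 36.2 and 64.5 CPM per kb (mean 41.3, SD 21.2, n = 3 pools). Gpr108 followed at 13.6 CPM per kb (SD 8.90), Gprc5c at 11.4 (SD 1.24), Gpr180 at 9.36 (SD 5.84) and Adgrd1 at 7.32 (SD 4.63), and the pool values of these 4 overlapped. Adgrg1, Gpr89, Gpr137, Gpr22, Gpr6, Gpr107 and Adgrf5 came next with means between 4.85 and 3.02 CPM per kb. Adgrg4 alone made up 36.6%, 42% and 51.8% of the reads of all 110 genes.

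**Figure D1:**
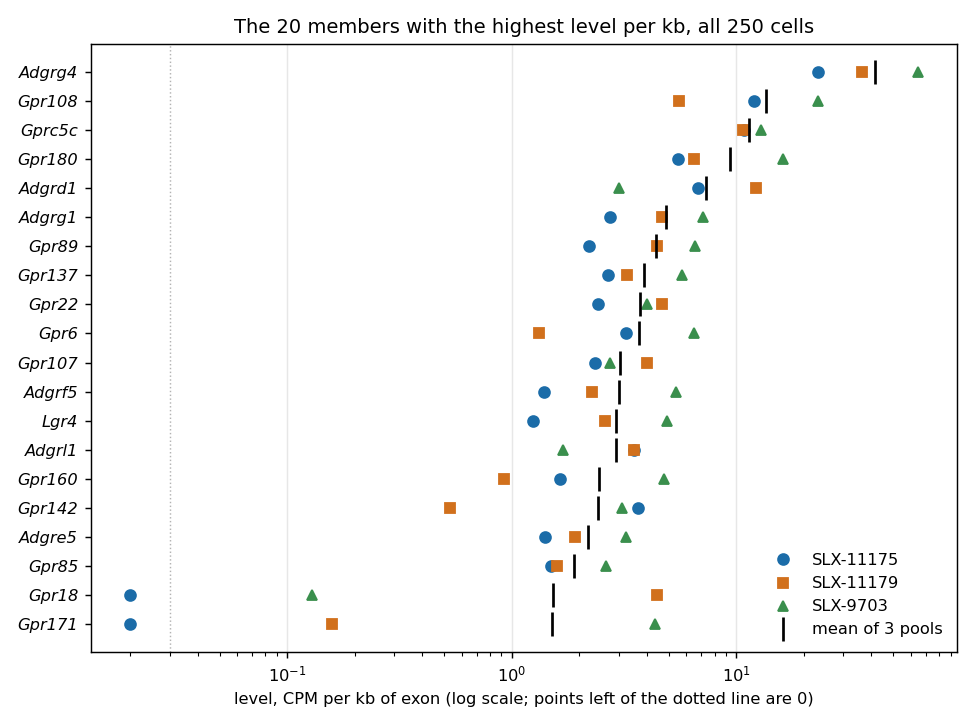
The 20 receptor genes with the highest level per kb of exon over all 250 cells, as CPM per kb on a log axis, with 1 point per pool and a bar at the mean of the 3 pools; points left of the dotted line are at 0. Adgrg4 is highest in each pool, and Gpr18 and Gpr171 vary most between pools.

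Most of the genes drew their reads from few cells. In the deep pool, 68 of the genes had 10 or more reads, and for the median gene 80% of the reads came from 5 cells. The share reached 50% or more for 46 genes and 90% or more for 28. Adgrg4 was spread more widely, with 29.2% of its deep-pool reads in 5 cells. The lowest share was that of Lgr6, with 16.4%. Lgr6 had only 73 reads there over 56 cells, so its share is low through few reads per cell and shows no wide expression. Reads of cDNA copies are not independent molecules, so single-cell values carry amplification error that the intervals below do not include. Those intervals treat cells pooled over the pools as independent and leave out the spread between pools.

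Adgrg4 lies on chrX:56870163-57001558, plus strand, in GENCODE M21 on GRCm38, and none of its exons overlaps another gene. Over all cells of a pool its level was 227, 355 and 633 CPM. By class, the Cck-high cells without another marker had 671, 718 and 877 CPM, the Pzp-positive cells 438, 641 and 996 CPM and the Nts-high cells 315, 483 and 745 CPM. The Gcg-high cells had 387, 441 and 435 CPM, the Gip-high cells 126, 205 and 167 CPM and the hormone-poor cells 8.71, 10.4 and 25.4 CPM. The pool values of the Pzp-positive and Nts-high cells overlapped those of the Cck-high and Gcg-high cells, while the Cck-high values lay above the Gcg-high values without overlap. The Gip-high cells lay below these 4 classes in every pool, and the hormone-poor cells lay below the Gip-high cells in every pool.

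Single cells showed the same order. Of the 196 hormone cells, 184 had a read of Adgrg4 (93.9%, exact binomial 95% interval 89.5 to 96.8), and at 20000 reads 177 of 196 did (90.3%, 85.3 to 94.1). Of the 54 hormone-poor cells, 20 had a read (37%, 24.3 to 51.3), 3 of 21, 4 of 20 and 13 of 13 by pool. At 20000 reads 9 did (16.7%, 7.92 to 29.3), 3 in each pool, against 45 of 54, 60 of 67 and 72 of 75 hormone cells. Among the Gip-high cells, 22 of 29 had a read (75.9%, 56.5 to 89.7), and 6 of the 7 without lay in SLX-11175. The highest single cell had 2914 CPM and was a Pzp-positive cell of the deep pool.

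**Figure D2:**
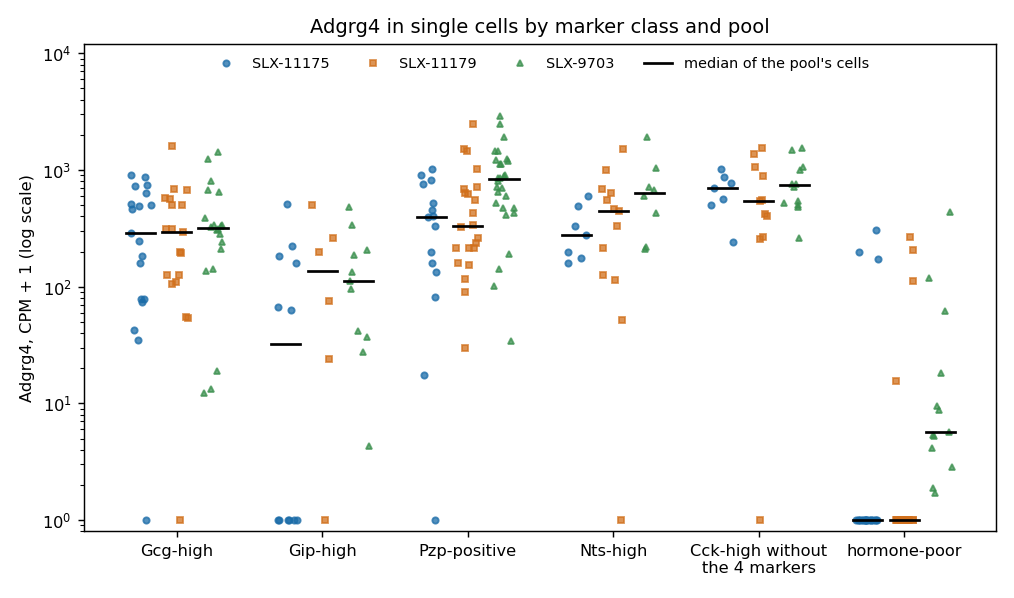
Adgrg4 in single cells, as CPM plus 1 on a log axis, by marker class and pool, with a bar at the median of each pool's cells; a cell past several thresholds appears in each of its classes. The medians of the Gip-high cells (31.2, 135 and 110 CPM) lie below those of the Gcg-high cells (287, 292 and 316 CPM), and the hormone-poor medians are 0, 0 and 4.70 CPM.

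For tests, reads were summed over the cells of each class in each pool, and the sums were compared with those of the other cells of the same pool. The test was edgeR's quasi-likelihood test, and the pool entered the fit as a block. Levels given with a test are TMM-normalized CPM. They can differ from the plain CPM above, as in the hormone-poor sums, where Adgrg4 is at 8.71, 10.4 and 25.4 plain CPM and at 25, 17.7 and 16.6 normalized CPM. In summed cells, fewer cells with a receptor and less RNA per cell cannot be told apart. A gene was called at a Benjamini-Hochberg adjusted p under 0.05 over all genes tested. Between 18 and 32 of the 110 genes passed the filter on low counts, which asks for a minimum level in 3 sums. Of these, 6 to 16 per comparison reached it in all 3 sums of one arm and in fewer of the other, so that they were tested through the arm where they are high and a difference is partly fixed by the filter. Adgrg4 and Adgrd1 reached it in all sums of both arms in the 3 comparisons that called them.

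The first comparison asked which receptors differ between hormone-poor and hormone cells. By the study's account, non-fluorescent control cells came from the less deeply sequenced mice, and only fluorescent cells were taken from the mouse sequenced at greater depth. The hormone-poor cells can thus differ in kind between pools by design, and since no label gives fluorescence, sorted controls and fluorescent cells low in hormones cannot be told apart in the 2 shallower pools. By the same account the deep pool's hormone-poor cells were fluorescent cells, although no label ties a pool to a mouse. Adgrg4 was at 25, 17.7 and 16.6 normalized CPM in the hormone-poor sums and at 326, 401 and 419 in the hormone cell sums. The arms did not overlap, and it was lower in all 3 pools. The log2 fold change was -4.30 (SE 0.47, edgeR adjusted p = 0.00472), and it was -6.41 (SE 0.59, adjusted p = 0.00579) with hormone thresholds 3 times lower. It was the only one called of 27 receptor genes tested, and edgeR called 2.74% of all 11370 genes tested. At an unadjusted p under 0.05 it was 5 of 27 (16.9% of all genes), and DESeq2 called 6 (13.7% of all genes), 5 of which passed the filter through one arm. The median log2 fold change was -0.09 over the receptor genes and -0.25 over all genes.

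The endocrine markers moved with this result, as did the plasma cell, leukocyte and myeloid markers and, in the deep pool, the enterocyte markers, at the levels given above. So did the 6 goblet markers, at 400, 6.38 and 128 CPM in the hormone-poor cells against 1033, 1324 and 2642 CPM over all cells. Of the 54 hormone-poor cells, 17 had an endocrine list of 500 CPM or more, as had all 196 hormone cells. In these 17 cells Adgrg4 was at 120, 98.7 and 79.4 CPM and 14 of 17 had a read, 2 of 4, 4 of 5 and 8 of 8 by pool, while in the other 37 cells it was at 2.51, 0 and 1.73 CPM and 6 of 37 had a read, 1 of 17, 0 of 15 and 5 of 5 by pool. The 7 cells with 500000 CPM or more of plasma cell markers had no Adgrg4 read, and the 3 deep-pool cells with 1000 CPM or more of leukocyte markers had 1.34 CPM. When both arms were limited to cells with 500 CPM or more of the endocrine list, a setting chosen after seeing the data that leaves 4, 5 and 8 hormone-poor cells, the log2 fold change was -2.11 (SE 1.24, edgeR adjusted p = 0.411). The part that cell type takes in the difference was not tested beyond this setting.

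**Figure D3:**
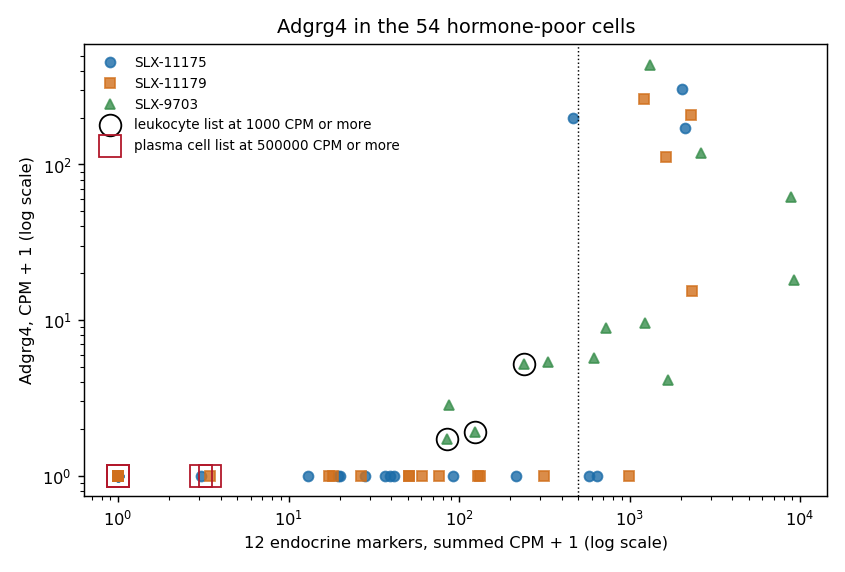
Adgrg4 (CPM plus 1) against the summed level of 12 endocrine markers (CPM plus 1) in the 54 hormone-poor cells, both on log axes, with a dotted line at 500 CPM; circles and squares mark cells high in leukocyte or plasma cell markers. In SLX-11175 and SLX-11179, 2 of 4 and 4 of 5 cells right of the line had an Adgrg4 read, against 1 of 17 and 0 of 15 left of it, while all 13 deep-pool cells had one.

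Other adhesion receptors were also lower in the hormone-poor sums without being called. Adgrf5, known as GPR116 and as a regulator of lung surfactant, was at 0, 7.47 and 0.611 normalized CPM against 18.3, 22 and 32.1 (log2 fold change -4.25, SE 1.35, edgeR adjusted p = 0.148). Adgrg1, the collagen-binding receptor GPR56, was at 0, 2.72 and 8.20 against 21.8, 28.1 and 25 (log2 fold change -3.15, SE 1.09, adjusted p = 0.188). For both genes the arms did not overlap. Gpr6, a constitutively active Gs-coupled receptor, had no read in any hormone-poor cell and was at 8.41, 2.69 and 7.72 normalized CPM in the hormone cells. Against a floor of 3 reads in each hormone-poor sum, on the same normalized scale, it was at least 2.47-, 1.32- and 58.9-fold lower (edgeR adjusted p = 0.0969). Gpr6 passed the low-count filter only through the hormone cell sums, and Adgrf5 and Adgrg1 reached it in 1 hormone-poor sum each. In all, 8 of the 27 receptor genes had arms that did not overlap (29.6%), against 29.5% of all genes.

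Gpr55, a receptor for lysophosphatidylinositol, lay the other way. It was at 19.3, 10.9 and 34.3 normalized CPM in the hormone-poor sums and at 0.247, 3.37 and 0.191 in the hormone cell sums, higher in all 3 pools without overlap (log2 fold change 5.27, SE 1.62, edgeR adjusted p = 0.138). Gpr55 passed the low-count filter only through the hormone-poor sums where it is high, so it had to differ to be tested, and nothing is read from its call without SLX-11179. Of its 836 deep-pool reads, 764 (91.4%) came from the 3 leukocyte-marked cells.

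Those 3 cells, each among the hormone-poor cells, held most deep-pool reads of 7 of 12 receptors known from leukocytes, Gpr55 among them (58.3%), against 4.96% of all 20762 genes and 8 of the 68 receptor genes (11.8%) with 10 or more deep-pool reads. These 12 were picked after their values were seen, and for each of the 7 a single one of the 3 cells gave most of the reads. They gave 1641 of 1651 reads of Gpr171 (99.4%), 848 of 850 of the lysolipid-responsive receptor Gpr132 (99.8%), 422 of 424 of the adhesion receptor Adgrg5 (99.5%) and all 13 of the homing receptor Gpr15. They also gave 850 of 1147 reads of the oxysterol receptor Gpr183 (74.1%) and 21 of 25 of the lysophosphatidylserine receptor Gpr174 (84%). The proton sensor Gpr65 (183 of 591 reads, 31%) and the CD97 gene Adgre5 (273 of 2067 reads, 13.2%) were mostly in other cells. Gpr35 had 1 of 86 reads in the 3 cells, and Gpr18 and Gpr34 had none of their 33 and 24 reads there. The cells were picked by the leukocyte markers and not by the receptors; with 3 cells of a single pool there is no test.

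Adgrd1, the adhesion receptor GPR133, which couples to Gs, was highest in the Nts-high cells. It lies on chr5:129096750-129204599, plus strand, with no exon overlap. The Nts-high sums held 479, 605 and 180 normalized CPM and the sums of the other cells 11.3, 6.61 and 6.73. The arms did not overlap, and the log2 fold change was 5.52 (SE 0.39, edgeR adjusted p = 1.57e-05). It was the only one called of 29 receptor genes tested, and 0.363% of all 12126 genes were called. At an unadjusted p under 0.05 there were 3 (7.41% of all genes), and DESeq2 called 1 (2.17% of the 11420 genes to which it gave an adjusted p). The median log2 fold change was -0.61 over the receptor genes and -0.22 over all genes. The 6 goblet cell markers were at 2665, 2029 and 3923 CPM in the Nts-high cells, against 1033, 1324 and 2642 CPM over all cells, with Clca1 at 0 in each Nts-high sum and Muc2, Zg16 and Spdef at 0 in those of the 2 shallower pools. Plasma cell markers were at 105, 104 and 0.0692 CPM against 194948, 122504 and 1.73 CPM, and the 6 myeloid markers at 24.9, 5.90 and 1.87 CPM against 382, 229 and 108 CPM. The 10 leukocyte markers were at 3.56, 25.1 and 16.8 CPM against 48.4, 50.6 and 276 CPM. Stem cell markers were at 5.34, 18.4 and 17.2 CPM against 30.3, 229 and 30.6 CPM. Their part in the result was not tested.

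Not every Nts-high cell had Adgrd1. Of the 28, 22 had a read (78.6%, 59 to 91.7) and 16 had 100 CPM or more, 4 of 7, 9 of 13 and 3 of 8 by pool. Of the 222 other cells, 57 had a read (25.7%, 20.1 to 31.9) and 4 had 100 CPM or more. At 20000 reads the shares with a read were 17 of 28 (60.7%, 40.6 to 78.5) and 16 of 222 (7.21%, 4.18 to 11.4), where the intervals cover cells pooled over the 3 pools. Pool by pool they were 4 of 7, 10 of 13 and 3 of 8 Nts-high cells against 3 of 68, 8 of 74 and 5 of 80 others, higher in the Nts-high cells in all 3 pools.

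The 4 cells outside the class are described singly. In SLX-11175, a cell with 813 CPM of Adgrd1 had 3862 CPM of Nts, below the threshold, and a cell with 147 CPM had 2601 CPM of Nts and 140481 CPM of Gip. In the deep pool, a cell with 886 CPM had 30.6 CPM of Nts and passed no hormone threshold, and a cell with 106 CPM had 10.1 CPM of Nts and 520949 CPM of Gip. The first pair thus had some Nts and the second pair next to none.

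The Nts-high cells were also split by Pzp. The 19 without Pzp, Gcg or Gip had 569, 789 and 275 CPM of Adgrd1 in their sums, and the 9 that were also Pzp-positive had 453, 41.6 and 77.6 CPM. Pzp-positive cells past no other of the 4 thresholds had 1.64, 6.23 and 5.59 CPM. Single cells overlapped. In SLX-11175 the 4 Nts-only cells had 0, 0, 930 and 990 CPM and the 3 doubly marked cells 0, 701 and 758 CPM, and in the deep pool the Nts-only sum rests on 1 cell at 1578 CPM. No test was run, and no order is read from these sums.

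The deep pool differed from the other pools in how Adgrd1 was spread. There, a single Nts-high cell at 1578 CPM gave 70.9% of the Adgrd1 reads of the class, and the median Nts-high cell had 21.8 CPM, against 701 and 621 CPM in SLX-11175 and SLX-11179. Across single cells, Pearson's r between log2(CPM + 1) of Adgrd1 and of Nts was 0.53, 0.69 and 0.24 (75, 87 and 88 cells). Both values of a cell share its library and depth, and most cells had no Adgrd1 read. Without the deep pool the log2 fold change was 5.95 (edgeR adjusted p = 5.52e-08). With thresholds 3 times higher, where 6, 8 and 3 Nts-high cells are left, it was 4.73 (SE 1.01, adjusted p = 0.308).

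**Figure D4:**
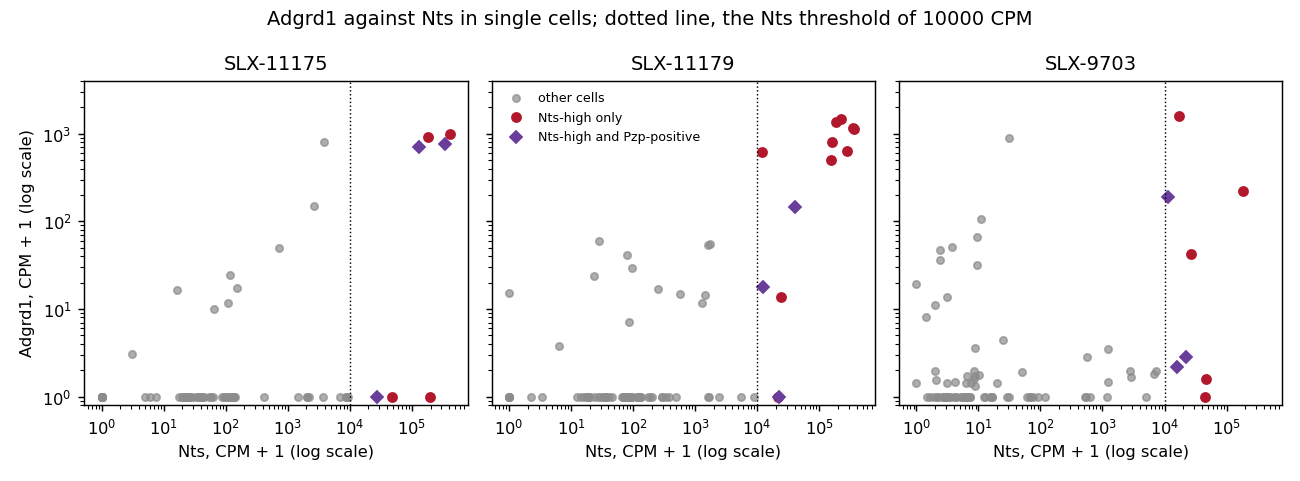
Adgrd1 against Nts in single cells (CPM plus 1, log axes), with 1 panel per pool and a dotted line at 10000 CPM of Nts; red circles are Nts-high cells without Pzp, violet diamonds are also Pzp-positive. Of the 20 cells with 100 CPM or more of Adgrd1, 16 lie right of the line.

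Among the other receptor genes in the Nts-high sums, Gprc5c was higher in all 3 pools, at 216, 86.4 and 71.4 normalized CPM against 57.4, 58.9 and 50.1, and was not called (log2 fold change 0.98, SE 0.35, edgeR adjusted p = 0.491). In SLX-11175, 62.1% of these reads came from 1 cell. Adgrg7, an adhesion receptor known from intestine, was at 0, 0 and 1.32 normalized CPM against 3.11, 3.47 and 2.96 (-2.68, SE 1.51, adjusted p = 0.836). Gpr55 had no read in any Nts-high cell. The other cells had 5.09, 6.78 and 4.05 normalized CPM, and against a floor of 3 reads it was at least 1.03-, 3.06- and 21.5-fold lower (edgeR adjusted p = 0.290). In the deep pool, 764 of the 836 Gpr55 reads came from the 3 leukocyte-marked cells, and the hormone cells were at 0.316 plain CPM. In SLX-11179, 1 Gcg-high cell gave 24 of the 41 reads. The bounds thus do not set Nts-high cells against other hormone cells. Like Adgrg7, Gpr55 passed the filter only through the sums of the other cells. Arms did not overlap for 5 of the 29 receptor genes (17.2%), against 15% of all genes.

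The Gcg-high cells were compared with all other cells of their pool. Adgrd1 was at 2.14, 8.71 and 4.80 normalized CPM in the Gcg-high sums and at 126, 147 and 24.2 in the others, with no overlap (log2 fold change -3.69, SE 0.56, edgeR adjusted p = 0.0329). It was the only one called of 32 receptor genes tested, and 0.426% of all 11978 genes were called. An unadjusted p under 0.05 was reached by 4 (8.99% of all genes), and DESeq2 called 3 (2.89% of all genes), of which Gpr55 and Gpr85 passed the filter through one arm. The other arm holds the Nts-high cells, none of which was Gcg-high. The 6 goblet markers were at 369, 560 and 711 CPM in the Gcg-high cells, against 1033, 1324 and 2642 CPM over all cells, and the 5 plasma cell markers at 190, 121 and 0.133 CPM against 194948, 122504 and 1.73 CPM. The 10 leukocyte markers were at 3.68, 6.22 and 27.1 CPM against 48.4, 50.6 and 276 CPM. Stem cell markers were at 14.7, 21.5 and 15.3 CPM against 30.3, 229 and 30.6 CPM. The 12 endocrine markers were higher, at 22162, 25280 and 46567 CPM against 9126, 12705 and 30734 CPM. Their part in the result was not tested. With the Nts-high cells left out, a setting chosen after seeing the data, the log2 fold change was -0.90 (SE 0.88, adjusted p = 0.841). The call was also lost without SLX-11175 (adjusted p = 0.0550) and without SLX-11179 (0.0687), with no pool block (0.0721), against other hormone cells only (0.0562) and with a mitochondrial limit of 10% (0.148).

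The other receptor genes were not called in the Gcg-high comparison by edgeR. Gpr85, a conserved brain orphan also known as SREB2, had the highest positive log2 fold change among the named genes. It was at 22.1, 25.5 and 11.9 normalized CPM against 1.91, 1.92 and 6.26, without overlap (2.64, SE 0.77, edgeR adjusted p = 0.316, DESeq2 adjusted p = 0.0145). In SLX-11175 and SLX-11179, 87.1% and 75% of the Gcg-high reads came from 1 cell each. The median Gcg-high cell had 0 CPM in both. Gpr89, a Golgi ion channel protein, was at 25.7, 43 and 35.1 against 13, 22.2 and 22.2 (0.86, SE 0.36, adjusted p = 0.532), and its exons overlap those of Pdzk1 and Gja5 on the other strand. Gprc5c was lower in all 3 pools, at 30.7, 51.1 and 30.2 against 112, 67.2 and 58.1 (-1.05, SE 0.33, adjusted p = 0.359). Gpr146 and Gpr75 had log2 fold changes of -1.92 (SE 0.97) and -1.89 (SE 1.00) and were lower in all 3 pools, as was the brain adhesion receptor Adgrb3 (-1.58, SE 0.89). Gpr75 and Gpr146 passed the low-count filter through the sums of the other cells and Gpr85 through the Gcg-high sums, so part of their difference is fixed by the filter. Gpr75 reached it in no Gcg-high sum and had to be lower to be tested. Adgrg4 overlapped between the arms (-0.05, SE 0.23, adjusted p = 0.982). Arms were apart for 7 of 32 receptor genes (21.9%), against 14.1% of all genes, and the median log2 fold change was -0.75 against -0.07.

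In the Gip-high comparison, edgeR called Gpr142, the tryptophan receptor. It lies on chr11:114798924-114806745, plus strand, without exon overlap. The Gip-high sums held 40.6, 5.12 and 29.9 normalized CPM, from 21, 4 and 460 reads, and the other cells 0.740, 0.133 and 0.585, from 3, 1 and 130 reads. It was higher in all 3 pools (log2 fold change 5.61, SE 1.12, edgeR adjusted p = 0.0342). Gpr142 passed the low-count filter only through the Gip-high sums where it is high, so it had to differ to be tested, and its call is given as a description. It was the only one called of 31 receptor genes tested, and 0.967% of all 12100 genes were called. At an unadjusted p under 0.05 there were 8 of 31 (9.64% of all genes), and DESeq2 called 4 (4.10% of the 11161 genes to which it gave an adjusted p). These 4 were Gpr22, Gpr108, Gpr142 and Gpr160, of which the last 3 passed the filter through a single arm.

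Few cells carried Gpr142. Of the 29 Gip-high cells, 8 had a read (27.6%, 12.7 to 47.2), 4, 1 and 3 by pool, at 13.9 to 440 CPM. In the deep pool, 266 and 115 of the 460 reads came from 2 cells with 23648 and 35829 CPM of Gip, and of the 5 cells there with 217477 CPM or more of Gip 1 had a read, at 26.2 CPM of Gpr142. A single cell gave 14 of the 21 reads in SLX-11175, and another all 4 in SLX-11179. Of the 221 other cells, 9 had a read (4.07%, 1.88 to 7.59), at most 59.8 CPM. At 20000 reads the shares were 5 of 29 (17.2%, 5.85 to 35.8) and 2 of 221 (0.905%, 0.110 to 3.23), and in SLX-11179 no Gip-high cell of 6 had a read at that depth. No Nts-high cell (0 of 28, which allows up to 12.3%) and no hormone-poor cell (0 of 54, up to 6.60%) had a read, limits on cells with a read at these depths and not on cells with the transcript, and 6 of 58 Gcg-high cells did. Of the 16 of 17 other settings where it was tested, the call was lost in 6. In cells thinned to 20000 reads it did not pass the low-count filter. The edgeR adjusted p was 0.173 without SLX-11175, 0.168 without SLX-9703, 0.188 with 750000 reads as the minimum in the deep pool, 0.0801 with thresholds 3 times higher, 0.0541 with a mitochondrial limit of 10% and 0.0545 with no pool block. The Gip-high cells of SLX-11175 and SLX-9703 were shallower than the other hormone classes, with medians of 31018.50 and 948000 reads.

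The orphan Gpr160 had no read in any of the 29 Gip-high cells. The other cells had 10.1, 4.38 and 15.4 normalized CPM, so that against a floor of 3 reads it was at least 1.75-, 1.14- and 78.9-fold lower (edgeR adjusted p = 0.142). It passed the filter only through the sums of the other cells where it is high, so it too had to differ to be tested. Its highest class was the Cck-high cells, at 87.7, 13.2 and 36.2 CPM. In SLX-11175, 78.9% of the Cck-high reads came from 1 cell. The bound is thus wide only in the deep pool.

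Further receptor genes had Gip-high arms apart from the rest without being called. Gpr22, an orphan known from brain and heart, was at 42.5, 46.1 and 50.5 normalized CPM against 10.9, 19.4 and 10.7 (log2 fold change 1.83, SE 0.58, edgeR adjusted p = 0.210). Gpr108 was at 0, 5.12 and 14.4 against 50.1, 17.3 and 49.7 (-2.60, SE 0.89, adjusted p = 0.267). Gpr146 was at 0, 0 and 0.521 against 13.6, 6.11 and 5.92 (-4.44, SE 1.54, adjusted p = 0.272). Adgrg4 was at 151, 191 and 182 against 311, 379 and 472 (-1.14, SE 0.33, adjusted p = 0.171). In all, 9 of 31 receptor genes had arms apart (29%), against 18.7% of all genes, and the median log2 fold change was -0.27 over the receptor genes and -0.34 over all genes. Gpr146 also passed the filter only through the other cells, and Gpr108, at 0 in the SLX-11175 Gip-high sum, passed through them too. Of the 31 tested receptor genes, 11 passed through a single arm, so part of such differences is fixed by the filter. The 6 goblet markers summed to 79.4, 187 and 174 CPM in the Gip-high cells, against 1033, 1324 and 2642 CPM over all cells, with Muc2, Zg16, Spdef and Clca1 at 0. The 10 enterocyte markers summed to 1009, 2198 and 1907 CPM against 1849, 2323 and 4999 CPM, with Alpi at 0 in the 2 shallower pools. Plasma cell markers were at 230, 78.4 and 0.0596 CPM against 194948, 122504 and 1.73 CPM, and the 10 leukocyte markers at 0, 1.37 and 19.3 CPM against 48.4, 50.6 and 276 CPM. Their part in these levels was not tested.

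Pzp, the gene by which the next class was chosen, encodes a protease inhibitor of the alpha-2-macroglobulin family. No receptor gene of 30 tested was called by edgeR, while 1.38% of all 12302 genes were called. An unadjusted p under 0.05 was reached by 5 (10.4% of all genes), and DESeq2 called Adgrf5, Gpr22 and Gpr55, 3 genes (4.82% of the 12063 genes to which it gave an adjusted p). Gpr55 reached the low-count filter in no Pzp-positive sum, so it had to be lower to be tested. Adgrf5 was at 43.9, 54.2 and 55 normalized CPM against 11.4, 14.1 and 27.8 (log2 fold change 1.59, SE 0.35, edgeR adjusted p = 0.0928). Gpr22 was at 5.49, 7.89 and 3.93 against 20.5, 33.1 and 20.9 (-2.16, SE 0.47, adjusted p = 0.0968). Adgrg4 was at 428, 547 and 719 against 319, 390 and 362 (0.64, SE 0.18, adjusted p = 0.216). Adgrb3 was higher in all 3 pools with overlapping arms (0.82, SE 0.79, adjusted p = 0.80).

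For Adgrf5, Gpr22 and Adgrg4 the values of the Pzp-positive sums did not overlap those of the other cells. Arms were apart for 4 of 30 receptor genes (13.3%), Gpr55 with the limit above being the fourth, against 15.5% of all genes, and the median log2 fold change was -0.28 against -0.10. The 6 goblet cell markers summed to 4413 to 5782 CPM in the Pzp-positive cells, with Zg16, Spdef and Clca1 at 0 in SLX-11175 and SLX-11179 and Clca1 at 0 in SLX-9703, against 79.4 to 187 CPM in the Gip-high, 369 to 711 CPM in the Gcg-high, 2029 to 3923 CPM in the Nts-high and 1043 to 2549 CPM in the Cck-high cells. The 6 tuft cell markers summed to 20.2, 21 and 28.7 CPM in the Pzp-positive cells, against 5.92, 4.61 and 13.6 CPM over all cells, with Trpm5, Pou2f3, Sh2d6 and Alox5ap at 0 in each Pzp-positive sum. Plasma cell markers were at 231, 110 and 0.119 CPM against 194948, 122504 and 1.73 CPM. The 10 leukocyte markers were at 1.12, 15.4 and 10.8 CPM against 48.4, 50.6 and 276 CPM, and the 6 myeloid markers at 20.2, 214 and 44.8 CPM against 382, 229 and 108 CPM. Their part in these levels was not tested.

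Set directly against the Gcg-high cells, the Pzp-positive cells again had no receptor gene called by edgeR among 18 tested, and 1.05% of all 9119 genes were called. There were 4 at an unadjusted p under 0.05 (8.83% of all genes), and DESeq2 called 2, Gpr22 and Gpr85 (3.45% of all genes), both of which passed the filter through the Gcg-high sums. Gprc5c was at 95, 81.3 and 86.2 normalized CPM in the Pzp-positive sums against 34.4, 61.7 and 34.7 (log2 fold change 1.06, SE 0.35, edgeR adjusted p = 0.335). Adgrf5 was at 50.1, 61.6 and 60.5 against 10.6, 25.2 and 28.9 (1.47, SE 0.42, adjusted p = 0.219). Gpr22 was at 5.28, 8.97 and 4.33 against 17.6, 75 and 16.3 (-2.27, SE 0.59, adjusted p = 0.187), where 1 cell gave 68.2% of the reads behind the 75 CPM. The arms of these 3 genes, of Gpr85 and of Gpr89 did not overlap, 5 of 18 (27.8%) against 15% of all genes. The medians of the log2 fold changes were 0.30 and -0.00.

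**Figure D5:**
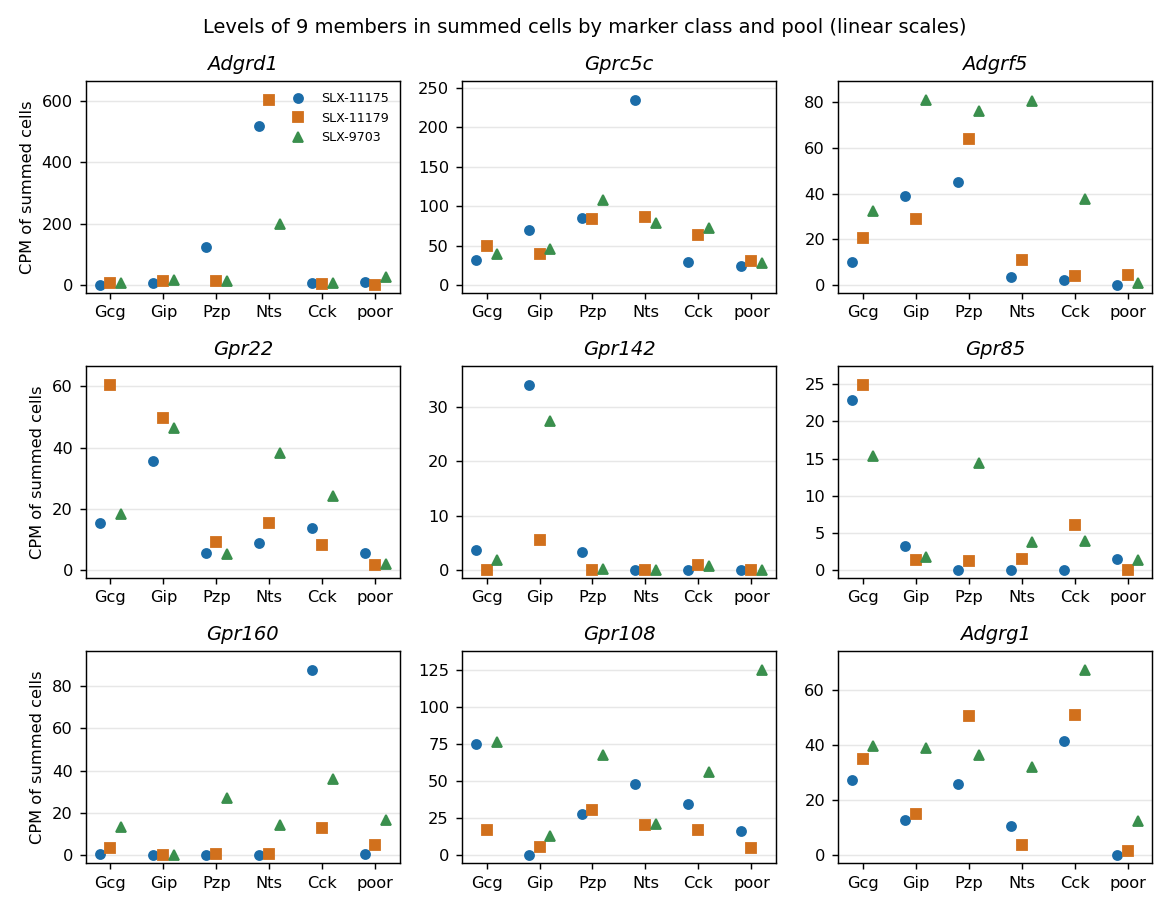
Levels of 9 receptor genes as plain CPM of the summed cells of each marker class (Gcg, Gip, Pzp, Nts, Cck-high without the 4 markers, and hormone-poor), with 1 point per pool on linear axes whose scale differs between panels. Adgrd1 is highest in the Nts-high sums of each pool and Gpr142 in the Gip-high sums, where Gpr160 is at 0 in all 3 pools.

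The remaining adhesion receptors among the leading genes had their own class orders. Adgrf5, on chr17:43360451-43459557, plus strand, was at 44.9, 63.6 and 76.2 CPM in the Pzp-positive and 38.9, 28.9 and 81 CPM in the Gip-high cells. In the Cck-high cells it was at 2.31, 4.08 and 37.8 CPM and in the Nts-high cells at 3.56, 11.1 and 80.4 CPM. In SLX-11175 and SLX-11179 the Pzp-positive and Gip-high values lay above those of the other classes, while in the deep pool the Nts-high value was as high as theirs.

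Adgrg1 was highest in the Cck-high cells of every pool, at 41.5, 50.9 and 67.2 CPM. In SLX-11175, 72.2% of these reads came from 1 cell. The Pzp-positive cells had 25.8, 50.6 and 36.5 CPM, nearly level with the Cck-high cells in SLX-11179. The Gcg-high cells had 27.2, 35.1 and 39.5 CPM and the Nts-high cells 10.7, 3.69 and 31.9 CPM, and apart from the hormone-poor comparison its arms overlapped throughout. Adgrl1, a latrophilin that binds teneurins, had class means over the 3 pools from 16.9 CPM (SD 5.62) in hormone-poor to 35.1 CPM (SD 15.6) in Pzp-positive cells. On the normalized scale the hormone-poor sums (59.1, 33.3 and 6.81 CPM) were above the hormone cells (31.2, 27.7 and 9.04 CPM) in 2 of 3 pools. Over all cells Adgrl1 was at 30.1, 30.2 and 14.5 CPM, its arms overlapped in all 6 comparisons, and its exons overlap predicted genes on the other strand.

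Among the orphans, Gpr22, on chr12:31706867-31713947, minus strand, was at 35.6, 49.5 and 46.3 CPM in the Gip-high and 15.5, 60.5 and 18.3 CPM in the Gcg-high cells, where 68.2% of the SLX-11179 reads came from 1 cell at 327 CPM. The Pzp-positive cells had 5.61, 9.26 and 5.45 CPM and the hormone-poor cells 5.54, 1.60 and 1.94 CPM. In plain CPM these 2 classes lay below the Gcg-high and Gip-high cells in every pool, but on the normalized scale the hormone-poor sums were at 15.9, 2.72 and 1.27 CPM against 12.9, 24 and 12.2 CPM in the hormone cells, so no order is read for SLX-11175. Gpr6, on chr10:41069977-41072285, minus strand, was seen in 31 of 250 cells, with 3, 4 and 9 of them Gcg-high by pool and a Gcg-high level of 9.57, 5.66 and 23.4 CPM. In SLX-11175 a single Pzp-positive cell at 550 CPM gave 50% of its reads. Gpr18, a lipid receptor known from leukocytes, entered the 20 leading genes through 2 cells of SLX-11179, and Gpr171 through 1 cell of the deep pool that gave 99.3% of its reads there.

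The Lgr genes encode receptors for R-spondins, which raise Wnt signalling, and Lgr5 marks intestinal stem cells. Lgr4 was the highest of the 3 per length in every pool, at 1.24, 2.61 and 4.90 CPM per kb, against 0.231, 0.588 and 0.0991 for Lgr5 and 0.420, 0.466 and 0.0626 for Lgr6. In the Gcg-high cells Lgr4 was at 15.5, 12.4 and 43.9 CPM and in the hormone-poor cells at 3.17, 9.58 and 3.01 CPM. No comparison called an Lgr gene; Lgr4 had log2 fold changes between -1.07 (SE 0.87) in the Nts-high and 0.48 (SE 0.52) in the Gcg-high sums.

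Lgr5 and Lgr6 were present as a few reads in many deep cells of every class. Lgr5 had a read in 72 of the 88 deep-pool cells, at no more than 6.89 CPM in a cell, and Lgr6 in 56, at no more than 3.31 CPM. The deep-pool level of Lgr5 was 0.989 CPM in Gcg-high, 0.866 in Pzp-positive, 1.45 in Nts-high and 1.54 in hormone-poor cells. In SLX-11179 a single Pzp-positive cell reached 310 CPM of Lgr5. The adhesion receptor Adgrl3, a latrophilin, behaved like Lgr5, with a read in 85 of 88 deep cells at a level of 2.07 CPM.

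Gprc5c, the one member of the Gprc5 group seen in most cells, had the smallest spread between pools relative to its mean among the 20 leading genes, at 56.7, 56 and 67.5 CPM over all cells. It had a read in 240 of 250 cells, and in the deep pool in all 88, between 6.80 and 397 CPM. The Nts-high cells (235, 86.2 and 78.8 CPM) and Pzp-positive cells (85.3, 83.9 and 108 CPM) were at the top, and the hormone-poor cells were at 24.1, 30.7 and 28.2 CPM. On the normalized scale the hormone-poor sums (69.3, 52.3 and 18.4 CPM) overlapped those of the hormone cells (67.8, 53.3 and 43.2 CPM), and its median over single hormone-poor cells (51, 52.1 and 53.3 CPM) was close to that over all cells (46.3, 52 and 47.7 CPM). Gprc5a and Gprc5b had 0.987 and 3.10 CPM on average over the pools, and Gprc5d had no read.

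Of the 10 intracellular proteins, 9 had a read in 10 or more cells and 1, Gpr107, in 125 or more. Gpr107 was at 29.9, 51.2 and 34.9 CPM over all cells, with a read in 191 of 250, and its plain class values in SLX-11175 ran from 13.5 CPM in hormone-poor to 78.4 CPM in Cck-high cells, while the normalized hormone-poor sum there was at 38.6 CPM. Gpr108 was at 34.3, 15.9 and 66.2 CPM over all cells and at 0, 5.5 and 13.2 CPM in the Gip-high cells. Gpr180 was at 10.3, 12.2 and 30.1 CPM over all cells. Gpr137, a lysosomal protein, was at 9.14, 11.1 and 19.5 CPM, and its exons overlap those of Bad on the other strand; the kit does not mark strand, so reads of such pairs cannot be told apart. Of the 10, 5 or 6 were tested per comparison and none of those tested was called by edgeR, while DESeq2 called Gpr108 in the Gip-high and Gpr180 in the hormone-poor comparison. Both passed the low-count filter through the arm where they are high, so part of their difference is fixed by the filter. In cells thinned to 20000 reads edgeR also called Gpr108 in the Gip-high comparison (log2 fold change -4.31, SE 1.24, adjusted p = 0.0230), where it reached the low-count filter in no Gip-high sum and had to be lower to be tested.

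The signalling partners of these receptors were followed as lists. Of 16 G alpha subunit genes, 9 to 12 were tested per comparison, and 2 calls were made, 1 in the Gip-high comparison, where 0.967% of all genes were called, and 1 in the hormone-poor comparison, with 2.74% of all genes. Gnao1, the Go subunit, was higher in the Gip-high sums, at 180, 137 and 135 normalized CPM against 43.7, 41.7 and 44.7 (log2 fold change 1.78, SE 0.37, edgeR adjusted p = 0.0453). Gnai1, a Gi subunit, was lower in the hormone-poor sums, at 0, 0 and 0.655 against 68, 56.8 and 54.1 (-7.19, SE 0.96, adjusted p = 0.0101). Gnai1 passed the low-count filter only through the hormone cell sums, so it had to differ to be tested, while Gnao1 passed in all sums of both arms. Of the other lists, 4 to 6 of 8 arrestins and receptor kinases, 7 to 10 of 19 adhesion receptor ligands such as teneurins, 3 to 6 of 9 R-spondins and Lgr partners, and prosaposin were tested per comparison. None of those tested was called by edgeR in the 6 comparisons. Their counts at an unadjusted p under 0.05 were 0 to 2 per list and comparison, and over all genes 7.41% to 16.9% were under it. The lists are short, so such counts can be large shares. For Pzp-positive cells they were 0 of 5, 2 of 10, 2 of 6 and 1 of 1 in the list order above (10.4% of all genes). For Pzp-positive against Gcg-high cells they were 0 of 4, 0 of 7, 2 of 3 and 1 of 1 (8.83% of all genes). The other comparisons had 0 or 1 per list. For the G alpha subunits the counts were 4 of 12 in the Gcg-high, 2 of 11 in the Gip-high and 3 of 10 in the hormone-poor comparison. They were 0 of 11 for Pzp-positive, 1 of 11 for Nts-high and 1 of 9 for Pzp-positive against Gcg-high cells.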

How the data were processed

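Single-cell cDNA libraries from 288 sorted cells had been made with Smart-seq2 and Nextera XT and sequenced on an Illumina instrument. The authors deposited a table of counts, raw reads per Ensembl gene and cell, not normalized; the submitters' processing notes name GSNAP 2015-09-29, HTSeq 0.5.3p3 and mm10, and the kit does not mark strand. Of all counts, 17.1% lay on 46078 mouse genes, 5.34% on 92 spike-ins and 77.6% on 5 lines that name no gene, which were left out with the spike-ins. The table also holds 4 columns of cells that carry no label here, which were not used. GENCODE M21 (GRCm38) named 45229 of the gene ids and gave coordinates and exon lengths.

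Cells with at least 20000 mouse gene reads and at most 20% mitochondrial reads were kept (250 cells, 20121 to 4368674 reads each, so that 1 read in the shallowest cells is a high CPM). CPM is per 1000000 mouse gene reads. Counts of the cells of each class were summed by pool, with at least 3 cells per sum, and tested with edgeR 4.0.16 in R 4.3.3 (TMM, filterByExpr, glmQLFit with robust estimation and glmQLFTest, pool as a block, Benjamini-Hochberg over all genes tested, threshold 0.05). The pairing comes from the pool in the labels: both arms come from the same sequencing pool, and their deviations from the arm means correlated at 0.08 to 0.48. The labels name no mouse per cell, so pools served as replicates. The classes were chosen by marker levels, and the receptors take no part in that choice. Thinning drew reads without replacement to 20000 per cell, and in the deep pool to 750000. Shares carry exact Clopper-Pearson 95% intervals, which treat cells pooled over the pools as independent and leave out the spread between pools. Counts of 0 carry a floor of 3 reads per sum, which covers counting error only.

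Genes named are members called in any of the 6 comparisons, the 20 with the highest mean level per kb, the 5 with the largest absolute log2 fold change per comparison among those with 10 or more reads in every pool and 1 direction in all pools, and the Lgr genes; the receptors of the leukocyte-marked cells, Adgrl3, Gprc5a, Gprc5b and the single cells described were chosen after their values were seen. The receptor genes, classes and lists were chosen with earlier results of these data known. Alternatives were DESeq2 1.42.0, no filter, no pool block, other thresholds and depth limits, other comparison cells and leaving out each pool. Limiting the cells to an endocrine list of 500 CPM or more, or leaving out the Nts-high cells, was chosen after seeing the data. Scripts were tested on simulated data. Python 3.11.15, NumPy 2.4.6, pandas 2.3.3, SciPy 1.17.1 and Matplotlib 3.10.9 were also used.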

Additional observations from a re-analysis of the deposited data

Results flagged for a closer look

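In the 38 cells left out for low depth or a high mitochondrial share, which enter no comparison, Adgrg4 had 706 reads (58.5 CPM) and Adgrd1 had 653 reads (54.1 CPM). These 2 had the most reads of 36 receptor genes that lay above the limit of 3 reads that a count of 0 allows, in cells that no comparison of the report uses; Gprc5c followed with 350 reads and Gpr107 with 255.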

How the results depend on the processing

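The number of receptor genes called moved with the test. With DESeq2 it was 3 for Gcg-high, 4 for Gip-high, 3 for Pzp-positive, 2 for Pzp-positive against Gcg-high and 6 for hormone-poor cells, against 1, 1, 0, 0 and 1 with edgeR. Over all genes the same change of test took the counts from 51, 117, 170, 96 and 312 to 346, 458, 581, 315 and 1561. With no filter on low counts it was 2, 4, 7 and 9 for Gcg-high, Gip-high, Pzp-positive and hormone-poor cells, with 540, 387, 863 and 1242 over all genes. Without the pool as a replicate block it was 0 for Gcg-high, 0 for Gip-high and 2 for hormone-poor cells, where Gpr6 joined Adgrg4, and it stayed at 0 for both Pzp comparisons and at 1 for Nts-high cells. With a mitochondrial limit of 10% it was 0 for Gcg-high and Gip-high cells. With thresholds 3 times higher it was 0 for Gip-high and Nts-high cells. In the Gip-high comparison it was 0 with at least 750000 reads per deep-pool cell and 2 with cells past 1 threshold, and it was 1 in cells thinned to 20000 reads, where Gpr108 stood in place of Gpr142 and reached the filter in no Gip-high sum. In the same setting Adgrd1 in the Gcg-high and Gpr22 in the Pzp-positive comparison also passed only through the other arm. Adgrd1 in the Nts-high comparison reached the filter there in 3 Nts-high sums and 2 sums of the other cells, so it too passed through the arm where it is high. In the Pzp-positive comparison thinning gave 1. In the Gcg-high comparison it was 0 against other hormone cells only and 0 without Nts-high cells, and in the hormone-poor comparison 0 with the endocrine list at 500 CPM or more. Leaving out each pool in turn gave 0 to 1 for Gcg-high, 0 to 2 for Gip-high (2 without SLX-11179), 0 to 0 for Pzp-positive, 1 to 1 for Nts-high, 0 to 0 for Pzp-positive against Gcg-high and 1 to 2 for hormone-poor cells. Counts over all genes moved too. They were 26, 70 and 564 for Gcg-high, Gip-high and hormone-poor cells without the block, 53 and 103 for Gcg-high and Gip-high with the mitochondrial limit, 170 and 33 for Gip-high and Nts-high with the higher thresholds, 108, 287 and 150 for the next 3 Gip-high settings in the order above, 263 for Pzp-positive cells thinned, 29 and 45 for the 2 Gcg-high settings and 5 for the endocrine limit. Over the pools left out in turn they were 45 to 115, 115 to 196, 92 to 377, 62 to 92, 48 to 79 and 105 to 578 in the order above. The cause of these shifts was not tested, beyond the fewer cells or pools that a setting leaves.

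Over the called or named members, 416 of 456 alternative values kept direction and side of the threshold, 26 came past it, 14 fell short of it and none reversed. Counts over all genes ran from 26 to 540 for Gcg-high (51 as reported), 70 to 458 for Gip-high (117), 92 to 863 for Pzp-positive (170), 10 to 248 for Nts-high (44), 48 to 315 for Pzp-positive against Gcg-high (96) and 5 to 1561 for hormone-poor cells (312). DESeq2 moved the share of higher calls from 23.5% to 35.8% for Gcg-high and from 46.2% to 31.4% for hormone-poor cells. The comparisons of other hormone cells only and of cells past 1 threshold were not run for Pzp-positive against Gcg-high or hormone-poor cells. Depth limits the 2 shallower pools, where many members have under 10 reads in a sum.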
